A study of Mus musculus with 20 samples.

Results

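Small leucine-rich proteoglycans are secreted matrix proteins whose horseshoe-shaped cores bind collagen fibrils. The 10 genes followed here were Dcn, Bgn, Aspn, Fmod, Lum, Prelp, Kera, Omd, Ogn and Podn, taken as the entries of that name in both deposited tables, 10 of 26214 genes listed. They were measured by RNA-seq of ribosome-depleted total RNA from the heart apex of 20 uninjured wild-type FVB/NRj mice aged 28 days. Each mouse carried AAV9, a viral vector that transduces heart muscle well, injected behind the eye (retro-orbital). They formed 4 groups of 5. The first pair was hTNNT2 Zeb2os (3 males, 2 females) and hTNNT2 control (0 males, 5 females), in which the cardiac troponin T promoter restricts the cargo largely to cardiomyocytes. The second pair was CMV Zeb2os (1 male, 4 females) and CMV control (2 males, 3 females), with a promoter active in most cell types. Zeb2os is the long noncoding RNA antisense to Zeb2, and neither the cargo of the control vectors nor the age at injection is stated in the sources at hand.

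In connective tissue these proteoglycans set the diameter and spacing of collagen fibrils, and several also hold TGF-beta or BMP ligands in the matrix. When released from it, decorin and biglycan can act on cell-surface receptors such as Toll-like receptors. In the heart they are made mainly by fibroblasts and valve interstitial cells rather than by cardiomyocytes, the cells in which the hTNNT2 promoter is active. By sequence and gene structure the family falls into classes. Class I holds decorin (Dcn), biglycan (Bgn) and asporin (Aspn). Class II holds fibromodulin (Fmod), lumican (Lum), PRELP (Prelp), keratocan (Kera) and osteomodulin (Omd). Osteoglycin (Ogn) belongs to class III and podocan (Podn) to class V.

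The data consist of the authors' own comparison of 5 with 5 mice for each promoter, so each gene has 1 mean normalised count over 10 mice, 1 log2 fold change of Zeb2os over control and the standard error (SE) of that change. Neither the level in each mouse nor an overlap of groups can be given from these. Mean normalised counts summed to 51284500 in the authors' deposited hTNNT2 table and 44295600 in the authors' deposited CMV table, and depths of single libraries were not at hand. The vector was visible in both. Zeb2os stood at a log2 fold change of 4.53 (SE 0.083) with hTNNT2 and 3.66 (SE 0.071) with CMV, and its neighbour Zeb2 at 0.033 (SE 0.080) with hTNNT2 and -0.0095 (SE 0.059) with CMV, in the authors' deposited tables. The tissue label matched its markers, with mean normalised counts of the cardiac myosin Myh6 of 1935770 and 1645870 in the authors' deposited hTNNT2 and CMV tables.

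The levels of the family were ordered by the deposited means, divided by the length of the longest coding transcript of the gene in GENCODE M21. Decorin, which binds collagen and TGF-beta, led the family with a mean of 13833 normalised counts per kilobase (kb) in the hTNNT2 table and 12163 in the CMV table of the authors. That was 50.7% and 51.1% of the summed per-kb level of the 10 genes, and 99.4% of protein-coding genes stood below it in each table. Biglycan, the close relative of decorin that carries a pair of glycosaminoglycan chains, followed at 5104 and 4444 normalised counts per kb. Osteoglycin, a small class III member, stood at 3237 and 2775 and lumican, a keratan sulfate proteoglycan also known from the cornea, at 2526 and 2222 normalised counts per kb. The union of all annotated exons, in which retained introns of Dcn and Bgn count, was the alternative length. With it decorin still led, at 4166 and 3663 normalised counts per kb, against 3237 and 2775 for osteoglycin. The share of decorin given above therefore depends on the length used. Biglycan then stood behind osteoglycin and lumican, at 2024 and 1763 normalised counts per kb.

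The remaining genes spanned a far wider range. Asporin, a class I protein with an aspartate-rich stretch, had 1239 and 1056 normalised counts per kb in the hTNNT2 and CMV tables of the authors. Prelp, whose product anchors basement membranes to collagen, had 1017 and 879 normalised counts per kb. Podocan stood lower, at 213 and 184, fibromodulin, a regulator of fibril assembly in tendon, at 59.9 and 39.6, and osteomodulin, best known from bone, at 29.7 and 24.9 normalised counts per kb. Keratocan, a corneal keratan sulfate proteoglycan, was at the floor. Its mean normalised count was 0.289 in the authors' deposited hTNNT2 table, and it was listed at 0 in the authors' deposited CMV table. Without values per mouse, the distance between neighbours in this order cannot be set against the spread between mice.

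**Figure D1:**
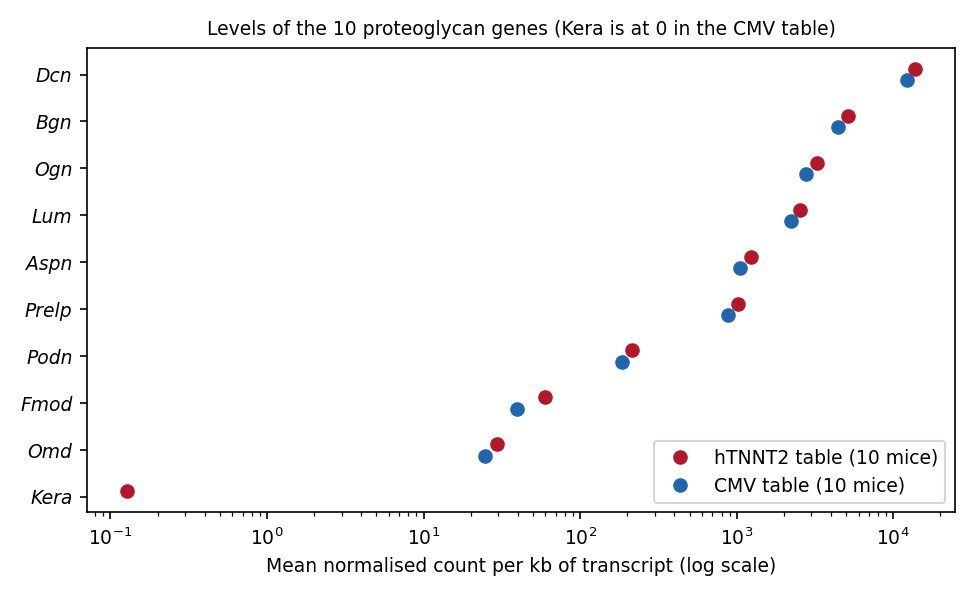
Mean normalised count per kb of the longest coding transcript, on a log axis, for each of the 10 genes, with the hTNNT2 table in red and the CMV table in blue (10 mice each, normalised separately). Dcn leads at 13833 and 12163, and Kera stands at 0.127 in the hTNNT2 table and is listed at 0, and so not drawn, in the CMV table.

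The order of levels was the same in both tables. Since these were normalised separately, a ratio between them was read against the median gene of those averaging 50 or more counts, which stood 1.16 times higher in the hTNNT2 table. For 8 of the 9 genes with counts in both, the ratio lay between 1.14 and 1.19. Fibromodulin differed, with mean counts of 187 in the hTNNT2 table and 123 in the CMV table of the authors, a ratio of 1.51. This ratio sets all 10 mice of one table against all 10 of the other and was not tested.

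The first comparison asked how the family responded when Zeb2os was driven in cardiomyocytes. Decorin had the highest value of the family. Its log2 fold change was 0.25 (SE 0.063, unadjusted p = 9.31e-05) in the authors' deposited hTNNT2 table, a fold of 1.19 at a mean count of 24319. It did not pass the adjusted threshold of 0.05, at an adjusted p = 0.0995 from DESeq2, and it ranked 17 of 21461 genes by p-value. With the statistics rescaled to their own spread (an empirical null), its adjusted p was 0.0306, so whether decorin is called depends on that choice. Of the 13358 genes averaging 50 or more counts, 99.9% had a lower statistic. The apex is a mixture of cells, and more cells of a type and more RNA per cell cannot be told apart here. Nor can sex and Zeb2os, since males were 3 of 5 in the hTNNT2 Zeb2os group and 0 of 5 in its control.

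Asporin and Prelp stood next. Asporin, which binds TGF-beta and collagen, was at 0.17 (SE 0.083, unadjusted p = 0.0373) and Prelp at 0.14 (SE 0.066, unadjusted p = 0.0404) in the authors' deposited hTNNT2 table, both with an adjusted p of 1.00 by DESeq2. Biglycan stood at 0.096 (SE 0.077, unadjusted p = 0.209), osteomodulin at 0.069 (SE 0.069, p = 0.318) and fibromodulin at 0.050 (SE 0.033, p = 0.128) in the authors' deposited hTNNT2 table, by the DESeq2 test. Osteoglycin at 0.0045 (SE 0.067), lumican at -0.0017 (SE 0.081) and podocan at -0.045 (SE 0.082) lay within 1 SE of 0 in the authors' deposited hTNNT2 table. Centred on the median gene or on genes of like mean count, lumican was on the positive side, at 0.00061 and 0.0097. Keratocan, at about 3 normalised counts over 10 mice, allows no statement.

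By the authors' DESeq2 test, 0 of the 9 members with an adjusted p-value passed in either direction, beside 0.0275% of all genes higher and 0.011% lower. At an unadjusted p under 0.05, 3 of 10 members with a p-value (Dcn, Aspn, Prelp) were higher and 0 were lower, beside 2.27% of all genes higher and 1.64% lower. In direction alone, 8 of 10 were higher, beside 47% of all genes, and 7 of the 9 averaging 50 or more counts, beside 48.5% of all such genes. The median of the members was a log2 fold change of 0.060, beside -0.00080 over all 21461 genes. The members are not independent replicates, since they come from the same mice and in part from the same cells.

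**Figure D2:**
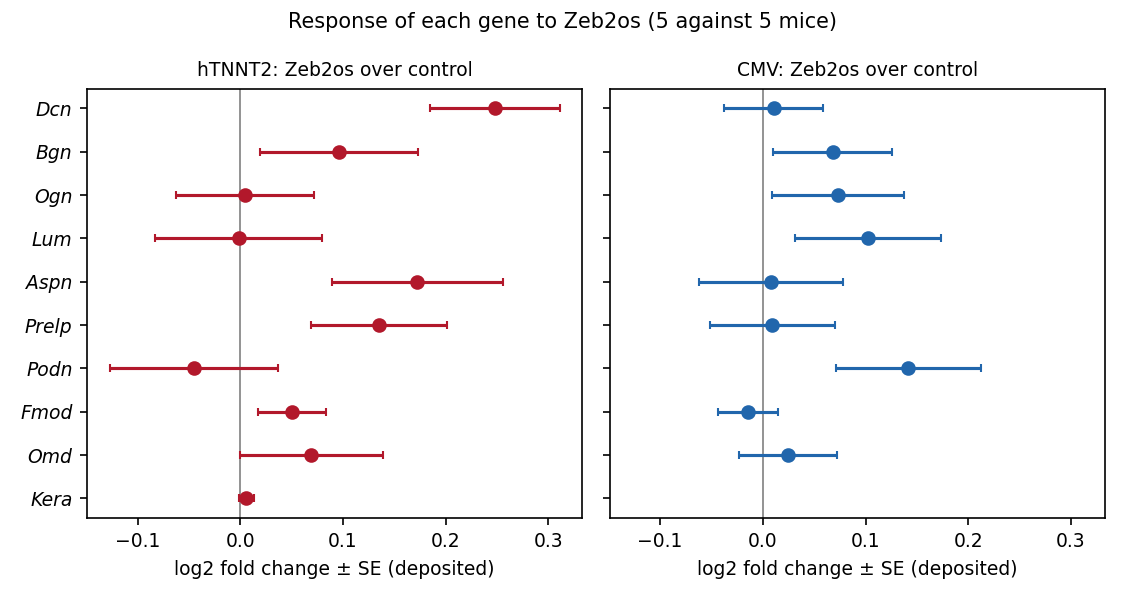
Deposited log2 fold change of Zeb2os over control for each gene (points) with its SE (bars), for hTNNT2 on the left and CMV on the right, 5 against 5 mice each and genes ordered by level. Dcn at 0.25, Aspn at 0.17 and Prelp at 0.14 stand apart from 0 on the left, and Podn at 0.14 on the right.

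The second comparison asked the same of the CMV promoter. Podocan, a class V member described as a brake on smooth muscle growth, was the highest at a log2 fold change of 0.14 (SE 0.071, unadjusted p = 0.0450, adjusted p = 1 by DESeq2) in the authors' deposited CMV table. This is a fold of 1.10 at a mean count of 583. Lumican stood at 0.10 (SE 0.071, p = 0.150), osteoglycin at 0.073 (SE 0.064, p = 0.254) and biglycan at 0.068 (SE 0.058, p = 0.239) in the authors' deposited CMV table, by the DESeq2 test. Decorin stood at 0.011 (SE 0.048), Prelp at 0.0091 (SE 0.061) and asporin at 0.0079 (SE 0.070), each within 1 SE of 0, in the authors' deposited CMV table. Decorin lay below genes of like mean count, at -0.0095 once centred on them. Osteomodulin at 0.024 (SE 0.048) and fibromodulin at -0.015 (SE 0.029) were also within 1 SE of 0 in the authors' deposited CMV table.

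Of the 9 members with an adjusted p-value in the CMV comparison, 0 passed by DESeq2, beside 0.00469% of all genes higher and 0% lower. At an unadjusted p under 0.05, 1 was higher (Podn) and 0 were lower, beside 0.661% of all genes higher and 1.01% lower. In direction 8 of 9 were higher, beside 48.3% of all genes and 52.2% of genes averaging 50 or more counts, and their median log2 fold change was 0.024, beside -0.00016 over all 21318 genes.

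**Figure D3:**
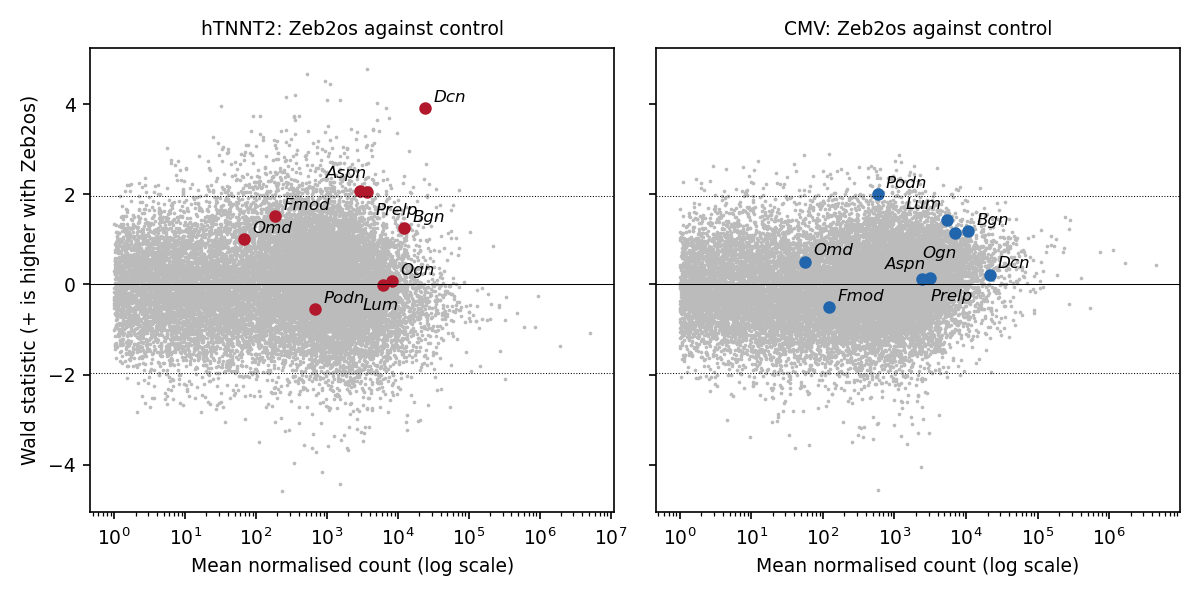
Wald statistic of each gene (above 0 means higher with Zeb2os) against its mean normalised count on a log axis, for hTNNT2 on the left and CMV on the right. Grey points are all genes averaging 1 or more counts except Zeb2os, and dotted lines mark 1.96 in either direction. Dcn, at 3.91, sits near the upper edge of all genes in the hTNNT2 panel and at 0.22 in the CMV panel.

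To set the promoters against each other, the CMV log2 fold change was subtracted from the hTNNT2 one, and these comparisons share no mice. Decorin had the clearest difference of the family, 0.24 on the log2 scale (SE 0.080, 95% interval 0.081 to 0.39), with an unadjusted p = 0.00291 that ranked 45 of 20754 genes. After Benjamini-Hochberg adjustment over the DESeq2 estimates of all these genes its adjusted p was 1, so the promoters are not shown to differ for decorin. Podocan differed the other way by -0.19 (SE 0.11, interval -0.40 to 0.025). Asporin differed by 0.16 (SE 0.11, interval -0.048 to 0.38) and Prelp by 0.13 (SE 0.090, interval -0.050 to 0.30). For biglycan the difference was 0.028 (SE 0.096), for lumican -0.10 (SE 0.11), for osteoglycin -0.069 (SE 0.093), for fibromodulin 0.065 (SE 0.044) and for osteomodulin 0.045 (SE 0.084). None of the 9 passed the adjusted threshold (0 of 9, beside 0.00482% of all genes higher and 0% lower with hTNNT2), and 1, decorin, did at an unadjusted p under 0.05, beside 1.66% higher and 0.988% lower. Intervals that include 0 do not show that the promoters act alike, and all these intervals hold on the deposited scale alone. Males were 3 of 5 with Zeb2os and 0 of 5 with control for hTNNT2, against 1 of 5 and 2 of 5 for CMV. Sex and Zeb2os therefore cannot be told apart in this difference either.

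Fibromodulin stood out in its error rather than in its fold change. Its SE was 0.033 in the hTNNT2 and 0.029 in the CMV table of the authors, and of the 500 genes nearest in mean count only 1% and 1.8% had a lower one. Their median SE was 0.082 and 0.067. A low SE is not by itself a sign of precision in these tables. The SE had a sharp upper limit, 0.0829 with hTNNT2 and 0.0713 with CMV, with 18.6% and 18.7% of all genes within 5% of it, and it dropped again to a median of 0.0073 and 0.0054 where the mean count was under 0.5. That is the form of estimates pulled towards 0 by a normal prior, where an uncertain gene receives both a small fold change and a small SE, while the statistic and its p-value are kept. On the assumption of such a prior, with an SD of 0.17 and 0.14, the unshrunken log2 fold change of fibromodulin would be 1.22 (SE 0.80) with hTNNT2 and -0.34 (SE 0.67) with CMV. The corresponding estimate for decorin with hTNNT2 has 2 solutions, 0.30 (SE 0.077) and 1.39 (SE 0.36), between which the deposited values do not decide. For asporin they were 0.34 (SE 0.16) and 0.35 (SE 0.17), and for Prelp 0.17 (SE 0.082) and 0.69 (SE 0.34). The folds given above therefore hold on the deposited scale alone.

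The 6 markers of the mesothelium and epicardium, the cell layer covering the heart, were divided in their SEs. Upk3b, Msln and Lrrn4 stood at SEs of 0.030, 0.029 and 0.033 with hTNNT2 and 0.025, 0.023 and 0.024 with CMV in the authors' deposited tables, at mean counts between 105 and 181. From 0.6% to 2.2% of genes of like mean count had a lower SE than these 3, which is near the share for fibromodulin. Wt1 was on the other side, at SEs of 0.083 and 0.071 in the authors' deposited hTNNT2 and CMV tables, with 93.6% and 89.6% of like genes lower. Krt19 had SEs of 0.068 and 0.041 in the authors' deposited hTNNT2 and CMV tables, with 25% and 5% of like genes lower. Upk1b had SEs of 0.036 and 0.030 in the authors' deposited hTNNT2 and CMV tables, at mean counts of 37.7 and 34.6, under the count at which like genes were compared. The valve and tendon list was divided too. For Wif1, a Wnt antagonist, 2% and 1% of like genes had a lower SE in the hTNNT2 and CMV tables, for Thbs4 6.8% and 26.6%, for Scx 62.8% and 27.8%, and for Cytl1 38.8% and 83.8%. Chad of that list stood at 45.6% with hTNNT2, and its mean count with CMV, 48.6, was under the limit for this comparison. Low shares were not particular to these lists. They were 0.4% and 4.4% for the protease gene Adamts4 and 2% and 14.4% for the myofibroblast marker Cilp in the hTNNT2 and CMV tables. These comparisons of SEs were chosen after their values were seen. Osteomodulin, at the lowest mean count among the 9 measured genes, was not low for its count: 41.6% and 15.6% of its count neighbours had a lower SE in the 2 tables.

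**Figure D4:**
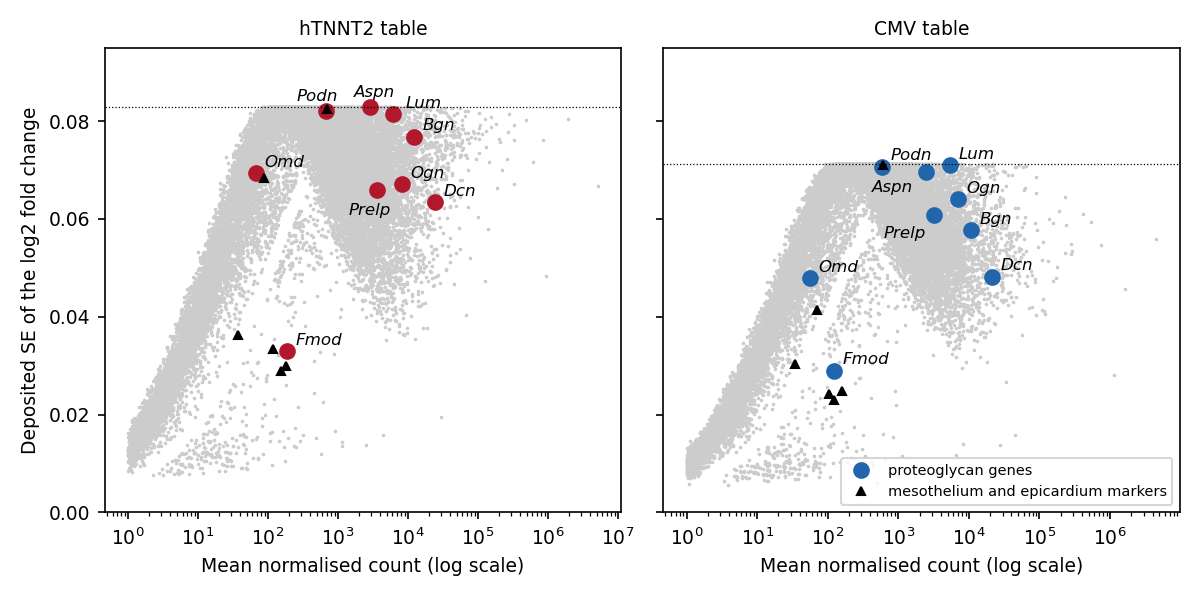
Deposited SE of the log2 fold change against mean normalised count (log axis) for all genes averaging 1 or more counts (grey), the proteoglycan genes (coloured) and the 6 markers of mesothelium and epicardium (black triangles), with hTNNT2 on the left and CMV on the right and the highest SE of each table as a dotted line. Fmod lies at 0.033 and 0.029, below most genes of like count, as do Upk3b, Msln and Lrrn4, whereas Wt1 at 0.083 and 0.071 (its triangle lies on the point of Podn), Podn, Aspn and Lum lie at or near the upper limit.

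The members other than Bgn and Podn lie in 3 gene clusters. Coordinates are those of GENCODE M21 on GRCm38. On chromosome 10, Dcn (97479609 to 97518143), Lum (97565128 to 97572703) and Kera (97606879 to 97613692) run on the plus strand with no other coding gene between them. The gap from Dcn to Lum is 47.0 kb. Dcn stood at 0.25 and Lum at -0.0017 with hTNNT2, and at 0.011 and 0.10 with CMV, in the authors' deposited tables. On chromosome 13, Aspn (49544443 to 49567565), Omd (49582462 to 49592822) and Ogn (49608046 to 49624501) lie within gaps of 14.9 and 15.2 kb, and stood at 0.17, 0.069 and 0.0045 with hTNNT2 and at 0.0079, 0.024 and 0.073 with CMV in the authors' deposited tables. On chromosome 1, Prelp and Fmod are 116 kb apart, and stood at 0.14 and 0.050 with hTNNT2 and at 0.0091 and -0.015 with CMV in the authors' deposited tables. Their positions are 133910304 to 133921414 (Prelp, minus strand) and 134037254 to 134048277 (Fmod, plus strand). Bgn lies alone on chromosome X (73483602 to 73495933) and Podn on chromosome 4 (108014791 to 108096445, minus strand). Differences between members of a cluster were not tested, since values per mouse would be needed. The annotated span of the coding gene Cenpp overlaps Aspn, Omd and Ogn, and that of Scp2 overlaps Podn. Mean counts with hTNNT2 and CMV were 81.0 and 67.7 for Cenpp and 5885 and 4951 for Scp2. How reads in these overlaps were counted is not known, since the strand setting is not stated.

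Other coding genes near the members showed no common direction. Of those within 500 kb, 79 had a p-value with hTNNT2 and 78 with CMV. With hTNNT2 42 were higher and 37 lower, at a median log2 fold change of 0.0055, and with CMV 42 were higher and 35 lower, at 0.0012. By DESeq2 0 passed in either table, with 2 higher and 3 lower with hTNNT2 and 2 higher and 2 lower with CMV at an unadjusted p under 0.05. Over all genes 2.27% were higher and 1.64% lower with hTNNT2, and 0.661% and 1.01% with CMV, at that p. The peroxidase gene Gpx7, 304 kb from Podn, stood at 0.24 (SE 0.083) in the authors' deposited hTNNT2 table. Btg2, an immediate early gene 26.9 kb from Fmod, stood at 0.033 (SE 0.072) with hTNNT2 and -0.19 (SE 0.065) with CMV in the authors' deposited tables. The adenosine receptor gene Adora1, 151 kb from Fmod, stood at -0.22 (SE 0.080) with hTNNT2 and 0.14 (SE 0.070) with CMV in the authors' deposited tables. Bicd2, a dynein adaptor gene 157 kb from Aspn, stood at -0.097 (SE 0.040) in the authors' deposited hTNNT2 table.

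Upstream sequence was examined because Zeb2, the gene antisense to the cargo, encodes a repressor that binds the E-box CACCTG and the shorter site CACCT. RefSeq windows on GRCm38.p6, 250 bases before a start site, were at hand for 8 members (9 windows, of which 2 belong to Podn). CACCT on either strand occurred in 3 of the 9 windows, those of Kera, Omd and 1 of Podn, beside 46.0% of all 32851 windows. CACCTG on either strand, which contains CACCT, occurred in 1 of 9, beside 17.2% of all windows. It was the downstream Podn start, where the E-box begins both 123 and 9 bases before the start site. TATAAA on the transcribed strand occurred in 2 of 9 (Aspn and Ogn, 207 and 227 bases before the start), beside 7.59% of all windows. The windows of the 3 members with an unadjusted p under 0.05 in either comparison for which any were at hand are shown, both for Podn, 5′ to 3′ on the gene's own strand. Both Podn windows lie inside the annotated gene, the Aspn window directly before the annotated start of Aspn, and the Prelp window overlaps the first bases of Prelp. Capitals mark CACCT or its reverse complement AGGTG, and TATAAA.
Podn, upstream start (chr4:108031955-108032204, minus strand): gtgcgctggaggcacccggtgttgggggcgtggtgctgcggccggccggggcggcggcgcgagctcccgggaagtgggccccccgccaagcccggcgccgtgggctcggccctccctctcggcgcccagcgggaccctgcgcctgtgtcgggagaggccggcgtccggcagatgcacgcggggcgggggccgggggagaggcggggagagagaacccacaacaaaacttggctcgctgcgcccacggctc
Podn, downstream start (chr4:108030987-108031236, minus strand): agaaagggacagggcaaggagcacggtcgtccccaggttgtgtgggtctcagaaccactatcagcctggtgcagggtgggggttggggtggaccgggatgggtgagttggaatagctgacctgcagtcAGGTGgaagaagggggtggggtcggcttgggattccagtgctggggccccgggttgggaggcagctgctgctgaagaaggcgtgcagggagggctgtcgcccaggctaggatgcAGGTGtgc
Aspn (chr13:49544193-49544442, plus strand): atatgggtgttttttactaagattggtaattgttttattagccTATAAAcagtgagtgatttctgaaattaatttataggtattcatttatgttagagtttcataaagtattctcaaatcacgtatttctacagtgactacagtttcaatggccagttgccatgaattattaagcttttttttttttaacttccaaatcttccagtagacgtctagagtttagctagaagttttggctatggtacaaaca
Prelp (chr1:133921402-133921651, minus strand): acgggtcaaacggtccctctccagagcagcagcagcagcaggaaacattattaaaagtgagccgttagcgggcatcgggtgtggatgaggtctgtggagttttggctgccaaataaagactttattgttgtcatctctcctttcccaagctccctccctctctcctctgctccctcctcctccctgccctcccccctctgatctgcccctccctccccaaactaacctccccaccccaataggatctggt
The Prelp window and the upstream Podn window hold none of these motifs. The windows differ in base composition, with 78% G and C for the upstream and 64% for the downstream Podn start, 30% for Aspn and 55.6% for Prelp, beside a median of 52.4%. A match says only that these letters are there.

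Among relatives of the family outside the list of 10, Ecm2, a matrix protein whose gene lies 11.7 kb from Aspn, had the highest level. Tsku followed at 88.4 and 67.5 normalised counts per kb with hTNNT2 and CMV, above fibromodulin and osteomodulin. Ecm2 stood at 0.15 (SE 0.078, unadjusted p = 0.0557 by DESeq2) with hTNNT2 and 0.018 (SE 0.062) with CMV in the authors' deposited tables, at mean counts of 2308 and 1996. Nyx, a retinal relative, stood at -0.11 (SE 0.068) and Podnl1, the closest relative of podocan, at -0.054 (SE 0.041) in the authors' deposited hTNNT2 table. Of the 8 relatives (Epyc, Optc, Podnl1, Ecm2, Nyx, Tsku, Chad, Chadl), 4 were higher and 4 lower in each comparison, at medians of -0.0012 with hTNNT2 and -0.0021 with CMV. None passed (0 by DESeq2 in each, adjusted or unadjusted). This list and those below were chosen with earlier results of these data known. Over all genes with hTNNT2, 47% were higher, and at an unadjusted p under 0.05 by DESeq2 2.27% were higher and 1.64% lower. With CMV these shares were 48.3%, 0.661% and 1.01%.

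The enzymes that build the sugar chains lay on both sides of 0. Of 20 that make the linker and the chondroitin or dermatan sulfate chains carried by decorin and biglycan, 13 were higher and 7 lower with hTNNT2 (median 0.024), and 8 were higher and 12 lower with CMV (median -0.011). By DESeq2 0 passed, and at an unadjusted p under 0.05 1 was higher with hTNNT2 and 0 with CMV. This was Ust, a sulfotransferase, at 0.16 (SE 0.079) in the authors' deposited hTNNT2 table. The chondroitin synthase Chsy1 stood at 0.098 (SE 0.059) and the dermatan sulfate epimerase Dse at 0.13 (SE 0.080) in the authors' deposited hTNNT2 table.

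Among enzymes of keratan sulfate and of tyrosine sulfation, modifications found on fibromodulin, lumican and osteomodulin, 7 of 7 were higher with hTNNT2 (median 0.040) and 4 of 6 with CMV (median 0.011). Over all genes 47% and 48.3% were higher. Only 5 of these enzymes averaged 50 or more counts in each table, and Chst5, at a mean count of 0.106 with hTNNT2, allows no statement. Tpst1, which sulfates tyrosines, stood at 0.21 (SE 0.073, unadjusted p = 0.00434, adjusted p = 0.589 by DESeq2) with hTNNT2 and 0.073 (SE 0.065) with CMV in the authors' deposited tables. It was the 1 gene of that list with an unadjusted p under 0.05 with hTNNT2, against 0 with CMV, and 0 passed the adjusted threshold. The galactosyltransferase B4galt4 stood at 0.12 (SE 0.077) and the keratan sulfate chain enzyme B3gnt7 at 0.068 (SE 0.046) in the authors' deposited hTNNT2 table.

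Collagens, the ligands of these proteoglycans, were mostly higher with hTNNT2. The list held fibrillar and fibril-associated chains and the chains Col6a1, Col6a2 and Col6a3, which are neither. Of 11 chains with a p-value, 9 were higher and 2 lower, beside 47% of all genes higher, at a median log2 fold change of 0.099. None passed by DESeq2 (0 of 11). At an unadjusted p under 0.05 5 chains stood higher and 0 lower, beside 2.27% of all genes higher and 1.64% lower. Col1a2 stood at 0.22 (SE 0.081), Col5a2 at 0.18 (SE 0.078) and Col3a1 at 0.17 (SE 0.082) in the authors' deposited hTNNT2 table. With CMV 8 of 12 were higher and 4 lower (median 0.012), with 0 passing at either threshold by DESeq2. There the same 3 genes stood at 0.021, -0.00011 and 0.013 in the authors' deposited table.

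Growth factors bound by the proteoglycans, and their partners, gave mixed values. Of 14 genes of TGF-beta, BMP and partners, among them Ccn2, Ccn4 and Wnt5a, 8 were higher and 6 lower in each comparison. The medians were 0.037 (hTNNT2) and 0.0083 (CMV). With DESeq2 0 passed, and at an unadjusted p under 0.05 2 were higher and 1 lower with hTNNT2, against 0 with CMV. Ltbp2, of the latent TGF-beta binding protein family, stood at 0.19 (SE 0.066) and the ligand Tgfb2 at 0.13 (SE 0.065) in the authors' deposited hTNNT2 table. Mstn, the growth inhibitor myostatin that decorin can bind, stood at -0.12 (SE 0.053) in the authors' deposited hTNNT2 table, at a mean count of 14.8.

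Receptors that respond to soluble decorin or biglycan were higher in 11 of 13 cases with hTNNT2 (median 0.084) and lower in 11 of 13 with CMV (median -0.048). Over all genes 47% were higher with hTNNT2 and 48.3% with CMV. None of the receptors passed by DESeq2 (0 of 13 in each). Beside 2.27% of all genes higher with hTNNT2 at an unadjusted p under 0.05, 2 receptors stood higher, against 0 in either direction with CMV. Those were the endotoxin co-receptor Cd14 at 0.19 (SE 0.082) and the endocytic receptor Lrp1 at 0.15 (SE 0.066) in the authors' deposited hTNNT2 table. The vascular receptor Kdr, to which decorin can bind, stood at 0.0060 (SE 0.077) with hTNNT2 and -0.13 (SE 0.066) with CMV in the authors' deposited tables.

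The list of proteases that process or degrade these cores includes Pcolce, a protease enhancer and not itself a protease. Of the 11 genes of the list, 8 were higher with hTNNT2 (median 0.030) and 4 with CMV (median -0.0040), and 0 passed by DESeq2. At an unadjusted p under 0.05 2 were higher with hTNNT2 and 1 lower with CMV. Adamts5 and Mmp2, both able to cleave proteoglycan cores, had log2 fold changes of 0.18 (SE 0.078) for Adamts5 and 0.11 (SE 0.054) for Mmp2 in the authors' deposited hTNNT2 table. Adamts1, of the same protease family as Adamts5, stood at -0.10 (SE 0.082) with hTNNT2 and at -0.28 (SE 0.069, unadjusted p = 5.02e-05, adjusted p = 0.357 by DESeq2) with CMV, in the authors' deposited tables. Hyaluronan-binding proteoglycans and hyaluronan synthases, large matrix components of another family, had 4 of 9 higher with hTNNT2 (median -0.0021) and 3 of 9 with CMV (median -0.022). Again 0 passed by DESeq2, with 1 higher at an unadjusted p under 0.05 with hTNNT2 and 0 with CMV. Hapln1, a link protein, stood at 0.058 (SE 0.028) and the brain proteoglycan Bcan at -0.085 (SE 0.053) with hTNNT2, and the synthase Has2 at -0.096 (SE 0.061) with CMV, in the authors' deposited tables.

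Markers of the cells that make the family were mostly higher beside it with hTNNT2. Of 10 fibroblast markers (none of them one of the 10 proteoglycan genes), 10 were higher with hTNNT2 (median 0.13) and 7 with CMV (median 0.012). Their mean counts summed to 194342 and 168562 in the authors' deposited hTNNT2 and CMV tables, and none was at 0. None passed by DESeq2 (0 in each), with 5 higher at an unadjusted p under 0.05 with hTNNT2 and 0 with CMV. Over all genes 47% and 48.3% were higher, and 2.27% and 0.661% were higher at that p. The 5 markers were Col1a1, Col1a2 and Col3a1, shared with the collagen list, Dpep1 and Dpt, dermatopontin. Dpep1 stood at 0.16 (SE 0.064) and Dpt at 0.14 (SE 0.068) in the authors' deposited hTNNT2 table. Further markers that define cardiac fibroblasts, chosen after their values were seen, were the receptor Pdgfra at 0.12 (SE 0.072) and the factor Tcf21 at 0.055 (SE 0.083) in the authors' deposited hTNNT2 table. In the authors' deposited CMV table Pdgfra stood at -0.038 (SE 0.057) and Tcf21 at -0.072 (SE 0.069).

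Myofibroblast markers were higher in 6 of 6 cases with hTNNT2 (median 0.079) and 4 of 6 with CMV (median 0.0031), with 0 passing by DESeq2 and 1 against 0 at an unadjusted p under 0.05. Comp, a cartilage and tendon matrix protein, stood at 0.19 (SE 0.063, unadjusted p = 0.00214, adjusted p = 0.464 by DESeq2), the matrix protein Cilp at 0.087 (SE 0.063) and the collagen regulator Cthrc1 at 0.074 (SE 0.060) in the authors' deposited hTNNT2 table. Valve and tendon-like genes with a p-value were higher in 4 of 5 cases with hTNNT2 (median 0.023), and with CMV 3 of 6 were higher and 2 lower (median 0.024). Of these, Scx at 0.20 (SE 0.082) and Thbs4 at 0.19 (SE 0.071) had an unadjusted p under 0.05 in the authors' deposited hTNNT2 table, and 0 passed by DESeq2 in either. Whether a change in the number of such cells has a part in the values of the family was not tested.

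Other cell types lay on both sides of 0. With hTNNT2, 8 of 8 macrophage markers were higher (median 0.16, summed mean count 16168), and 4 had an unadjusted p under 0.05 by DESeq2. Over all genes 47% were higher, and 2.27% were higher at that p. Lyz2, lysozyme, at 0.34 (SE 0.071, adjusted p = 0.0154 by DESeq2), was the 1 gene of all these lists to pass in the authors' deposited hTNNT2 table, with 0 in the CMV table. Smooth muscle and pericyte markers were higher in 8 of 8 cases (median 0.094), endothelial markers in 3 of 6 (0.0022), adipocyte markers in 4 of 5 (0.041) and Schwann cell markers in 2 of 4 (-0.00011). The pericyte channel gene Kcnj8 stood at 0.17 (SE 0.064) and the fat hormone gene Adipoq, at a mean count of 24.8, at 0.097 (SE 0.047) in the authors' deposited hTNNT2 table. Cardiomyocyte markers were lower in 8 of 8 cases (median -0.069, summed mean count 8883580), with the calcium release channel gene Ryr2 at -0.14 (SE 0.067) in the authors' deposited hTNNT2 table. Mesothelial markers were lower in 5 of 6 cases (median -0.0070, summed mean count 1286). Since Upk3b, Msln and Lrrn4 had the low SEs given above, the size of this median cannot be set against those of the other lists. The same holds for lists at low counts, such as the adipocyte markers.

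With CMV the medians were -0.0070 for macrophages, -0.057 for smooth muscle, -0.039 for endothelium, 0.014 for adipocytes, -0.022 for Schwann cells, 0.032 for cardiomyocytes and -0.017 for mesothelium. Wt1, a factor of the epicardium, stood at -0.15 (SE 0.071) and the fat droplet gene Cidec at 0.059 (SE 0.028) in the authors' deposited CMV table. No marker in these lists was listed at 0 in either table. The part of these cell types in the values of the proteoglycans was not tested.

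Genes that differ between the sexes were examined because of the unequal number of males. The X-linked genes Ddx3x, Kdm5c, Eif2s3x and Kdm6a, which escape X inactivation, were lower in 4 of 4 cases with hTNNT2 (median -0.18) and higher in 4 of 4 with CMV (median 0.036). None passed by DESeq2 (0 of 4 in each), and at an unadjusted p under 0.05 2 stood lower with hTNNT2, Ddx3x and Kdm5c, against 0 with CMV. Ddx3x stood at -0.23 (SE 0.077), Kdm5c at -0.23 (SE 0.082) and Eif2s3x at -0.13 (SE 0.083) in the authors' deposited hTNNT2 table. Bgn, the X-linked gene of the family, stood at 0.096 (SE 0.077) with hTNNT2 and 0.068 (SE 0.058) with CMV in the authors' deposited tables.

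**Figure D5:**
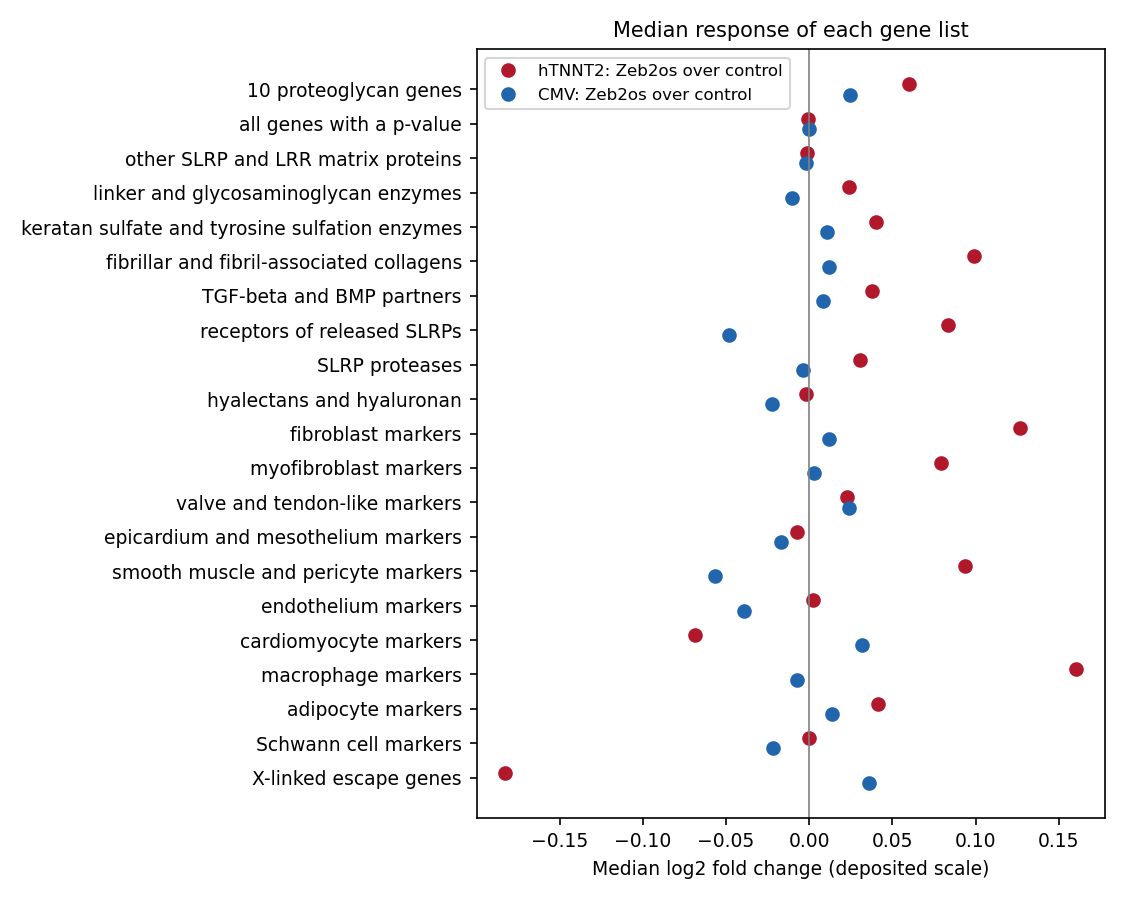
Median deposited log2 fold change of each gene list for hTNNT2 (red) and CMV (blue), with the 10 proteoglycan genes and all genes with a p-value in the upper rows; SLRP stands for small leucine-rich proteoglycan and LRR for leucine-rich repeat. With hTNNT2 the proteoglycans, at 0.060, lie between all genes near 0 and the fibroblast markers at 0.13, and with CMV at 0.024 they lie close to the fibroblast markers at 0.012. On this scale, medians of lists with low SEs or low counts, such as mesothelial and adipocyte markers, cannot be compared in size with the others. The proteoglycan list also holds Fmod, with a low SE, and Kera, at the floor. Its place relative to the fibroblast markers therefore holds on the deposited scale alone.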

How the data were processed

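RNA of the heart apex of 20 mice was sequenced after ribosomal RNA depletion, per the labels' protocols. Per the submitters' processing notes, the authors' steps included Trim Galore and DESeq2, and the genome builds named are mm10 and GRCm38. The sources used here do not name the aligner, the counter, its strand setting or any version. Per the file headers, the authors deposited for each promoter the mean normalised count (a signal), the log2 fold change and its SE, a Wald statistic (a score), a p-value and an adjusted p-value. The deposited statistic equals the log2 fold change over the SE with its sign turned, and was turned back, so that above 0 means higher with Zeb2os, as for Zeb2os itself. The authors' adjusted p under 0.05 was the threshold. Centring used genes averaging 50 or more counts.

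The difference between promoters was divided by its SE, the square root of the sum of both squared SEs, given a 2-sided normal p and adjusted by Benjamini-Hochberg over 20754 genes. This test and the undoing of shrinkage were run on data simulated under their own assumptions. That checks the calculation only, and it cannot decide between 2 solutions or show that the assumptions hold here. For the undoing of shrinkage, the SE was taken as that of a normal prior whose SD is 2 times the highest SE. The solution that would exceed counting precision was left out. Members and lists were chosen with earlier results of these data known, and 165 of 165 list entries matched. Of each list, called genes were to be named, or else up to 3 genes of lowest p; for the other cell types only the clearest of these are given. The labels do not state cage or litter, so whether mice of a group are independent is not known. The p-values take them as independent, cover the spread between these mice only, and do not separate Zeb2os from sex. Calculations used Python 3.11.15, numpy 2.4.6, pandas 2.3.3, scipy 1.17.1 and matplotlib 3.10.9.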

Additional observations from a re-analysis of the deposited data

How the results depend on the processing

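The count of members called with hTNNT2 was 0 with p-values adjusted over every gene, over genes averaging 50 or more counts (decorin's adjusted p was then 0.0777) or at a threshold of 0.01, and 1, decorin, at a threshold of 0.10 or with the empirical null. Over all genes the hTNNT2 calls numbered 7, against 12 over genes averaging 50 or more counts, 17 at 0.10, 17 with the empirical null and 1 at 0.01, and the CMV calls numbered 1, against 2 over genes averaging 50 or more counts, 2 at 0.10 and 13 with the empirical null. With CMV and for the difference between promoters the count was 0 under each alternative run. Members with an unadjusted p under 0.05 numbered 3 with hTNNT2 and 1 with CMV also with the empirical null and with the trend in count removed, while the share of all genes higher at that p went with the empirical null to 3.00% (hTNNT2, 2.27% as deposited) and 1.86% (CMV, 0.661% as deposited). The median log2 fold change lay between 0.050 and 0.069 with hTNNT2, and between 0.018 and 0.046 with CMV, when members were left out one at a time. With the apparent shrinkage undone, by the smaller solution where 2 were possible, the median was 0.23 with hTNNT2 and 0.086 with CMV. These values follow from the construction of that scale, an alternative chosen after seeing the data. The hTNNT2 value includes keratocan at 3.00 (SE 3.76), and no median was taken over the larger solutions. Lumican with hTNNT2 changed sign, to 0.00061 centred on the median gene and 0.0097 centred on genes of like mean count, as did decorin with CMV, to -0.0095 centred on such genes. No paired analysis was possible because the deposited tables hold no values per mouse and the mouse numbers are not shared between groups; for the same reason no mouse could be left out.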
